A study of Saccharomyces cerevisiae with 6 samples.

Results

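The genes described here are the MRPL genes of budding yeast, which encode proteins of the large subunit of the mitochondrial ribosome. They are the genes whose symbol is MRPL followed by a number. All 34 such genes in the reference gene table had a probe set on the array, among 5656 genes that could be represented by a probe set with 1 annotated gene. The rule that picks the members reads gene names and not signals. All 34 lay above the filter on dim genes. The data are 6 single-colour oligonucleotide arrays of total RNA, 3 of a wild type and 3 of a mutant labelled H2B3-32, after residues 3 to 32 of histone H2B. Elsewhere such a name denotes removal of that stretch of the amino-terminal tail, though the labels themselves do not say what was done to it. Both groups were grown in YPD, a rich glucose medium, and were collected in mid-log phase at an optical density of 0.5 to 0.7. Wild-type array 3 is labelled as serving 2 further H2B mutants as well. The sources used here do not give the strain background, other alleles or the number of clones or cultures.

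Mitochondria have their own ribosomes, which in budding yeast make the few proteins encoded by mitochondrial DNA, most of them subunits of the respiratory chain and of the ATP synthase. The MRPL proteins are encoded in the nucleus, made in the cytosol and imported. Some belong to families found in all ribosomes (named uL), some to families shared with bacteria (bL), and some occur in mitochondrial ribosomes and not in bacterial ones (mL). In glucose medium yeast cells ferment, and many genes for mitochondrial proteins are held below the level they reach on carbon sources that must be respired.

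The deposited values are MAS5 intensities on a linear scale, called signals here. Differences are mutant minus wild type of log2(signal + 2.7). The check of the labels is HTB1, a gene for H2B, whose signal was 1138 to 1372 on the wild-type arrays and 15.2 to 19.4 on the mutant arrays. Where its probe set lies relative to those residues was not determined. Replicate 3 of both groups stood apart: the median signal was 40 and 40.5 on these arrays against 28.7 to 31 on the other 4, and 18 probe sets for spiked hybridisation controls averaged 98.8 and 102 against 345 to 455. Results are therefore also given within replicates 1 and 2 and within replicate 3. In bulk RNA, a change in every cell and a change in the share of cells that hold more MRPL RNA cannot be told apart.

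The median signal of the 34 MRPL genes was 82, 76.2 and 115.7 on wild-type arrays 1, 2 and 3. On the mutant arrays of the same numbers it was 66.1, 66.3 and 108.5. The mutant median was thus below the wild-type median in each same-numbered pair, while both arrays of replicate 3 exceeded the other 4. Single MRPL signals ranged from 19.8 to 255. Probe sets differ in their response, so these levels do not order the genes by transcript amount.

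**Figure D1:**
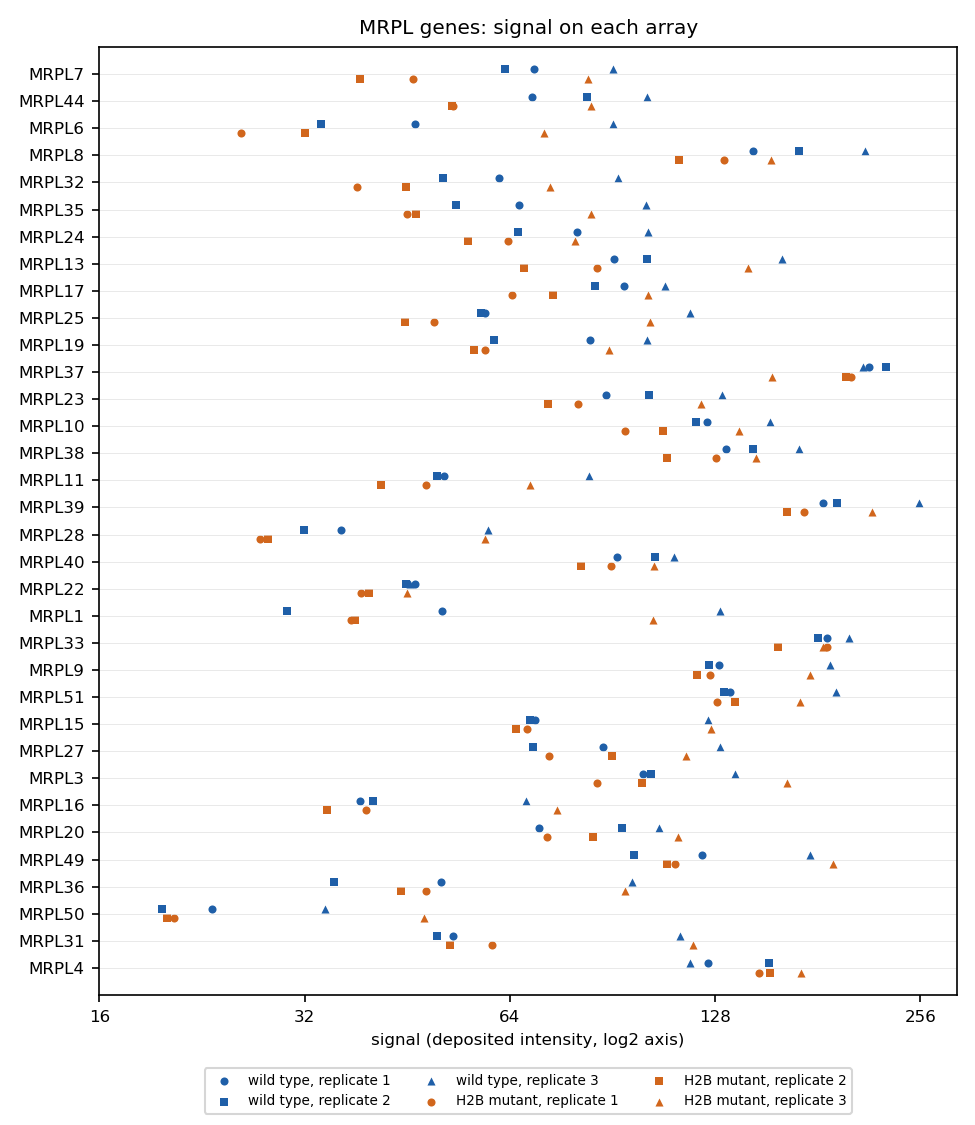
Signal of each MRPL gene (one row per gene) on each of the 6 arrays, on a log2 axis, with wild type in blue, the H2B mutant in orange and the replicate shown by the marker. Triangles, the arrays of replicate 3, lie to the right in most rows, and MRPL37 is the gene whose mutant points (155 to 202.4) all lie below its wild-type points (210.7 to 227.7).

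No MRPL gene passed the test between mutant and wild type. Most of them were nonetheless slightly lower in the mutant: 29 of 34 had a mean log2 difference below 0, as had 63% of the 4525 genes tested. That count was 18 without wild-type array 3, 21 without mutant array 1, 23 without mutant array 2 and 30 to 33 without any other single array. The median over the MRPL genes was -0.18, against -0.06 over all genes tested, and single genes ran from -0.45 (MRPL7) to 0.26 (MRPL4). That median was -0.33 without mutant array 3, -0.12 without mutant array 1, -0.05 without mutant array 2 and -0.03 without wild-type array 3. Over all genes tested it was -0.16, -0.01, -0.02 and 0.02 in the same order. Leaving out both arrays of replicate 1, 2 or 3 gave MRPL medians of -0.15, -0.14 and -0.18, against -0.06, -0.05 and -0.07 over all genes tested. MRPL7 is a universal protein of the top of the subunit and MRPL4 one of the peptide exit.

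With the group only, limma (lmFit and eBayes, two-sided, Benjamini-Hochberg over 4525 genes, threshold 0.05) called 0 of 34 MRPL genes, and 0.0221% of all genes tested. That 1 gene was HTB1. On simulated data with 1.5-fold and 2-fold changes, this fit recovered 0% of them and the fit with the block 59.7% and 89.7%. The simulated same-numbered arrays shared their replicate shift by construction, which favours the block. The inserted changes were larger than the mean difference of any MRPL gene, and smaller ones were not simulated. A count of 0 with the group only therefore carries little information. At an unadjusted p under 0.05 the group-only fit had 0 MRPL genes and 2.5% of all genes (1.46% lower). Same-numbered arrays deviated together from their group means, with correlations of 0.52, 0.59 and 0.86 over all genes tested. Over the MRPL genes these were 0.21, 0.57 and 0.85. Arrays of replicates 1 and 2 also correlated across numbers, at 0.51 and 0.65 over all genes tested and 0.5 and 0.68 over the MRPL genes. The pairing of replicates 1 and 2 thus rests on the labels. A second fit that took the replicate number as a block was read beside the first. It also called 0 of 34 MRPL genes, while it called 2.28% of all genes (1.39% lower and 0.884% higher). The lowest limma adjusted p of an MRPL gene was 1 with the group only and 0.0781, for MRPL8, with the block. An unadjusted p under 0.05 with the block was found for 12 MRPL genes that were lower and 1 that was higher, which is 35.3% and 2.94% of the 34, beside 12.1% and 5.17% of all genes tested (17.3% in either direction). With the block, scaling to a common median gave 2 passing MRPL genes (MRPL7 and MRPL8), a robust variance prior 3 (MRPL7, MRPL8 and MRPL44) and leaving out replicate 1 gave 1 (MRPL8), all lower. More of the 4525 genes passed in these fits as well. With the common median 115 fell and 101 rose, with the robust prior 148 and 73, and without replicate 1 136 and 71. In the fit with the block alone 63 fell and 40 rose. The block reduced the median standard error of an MRPL gene from 0.26 to 0.12 on the log2 scale. With the block, the 95% interval of every one of the 34 lay within 1 log2 unit of 0. It lay below 0 for 12 genes, above 0 for 1 and across 0 for 21.

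The small shift was present in each pair. Over the MRPL genes the pairs numbered 1, 2 and 3 had median log2 differences of -0.14, -0.17 and -0.13. Over all genes tested it was -0.06, -0.08 and -0.03. In replicate 1, 29 MRPL genes were lower in the mutant, 4 were higher and MRPL33 was equal, and in each of replicates 2 and 3, 26 were lower and 8 higher. Across all 3 pairs, 21 of 34 were lower every time (27.4% of all genes tested) and 2, MRPL4 and MRPL31, were higher every time (11.5% of all genes tested). The remaining 11 had mixed signs or a difference of 0 in one pair.

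**Figure D2:**
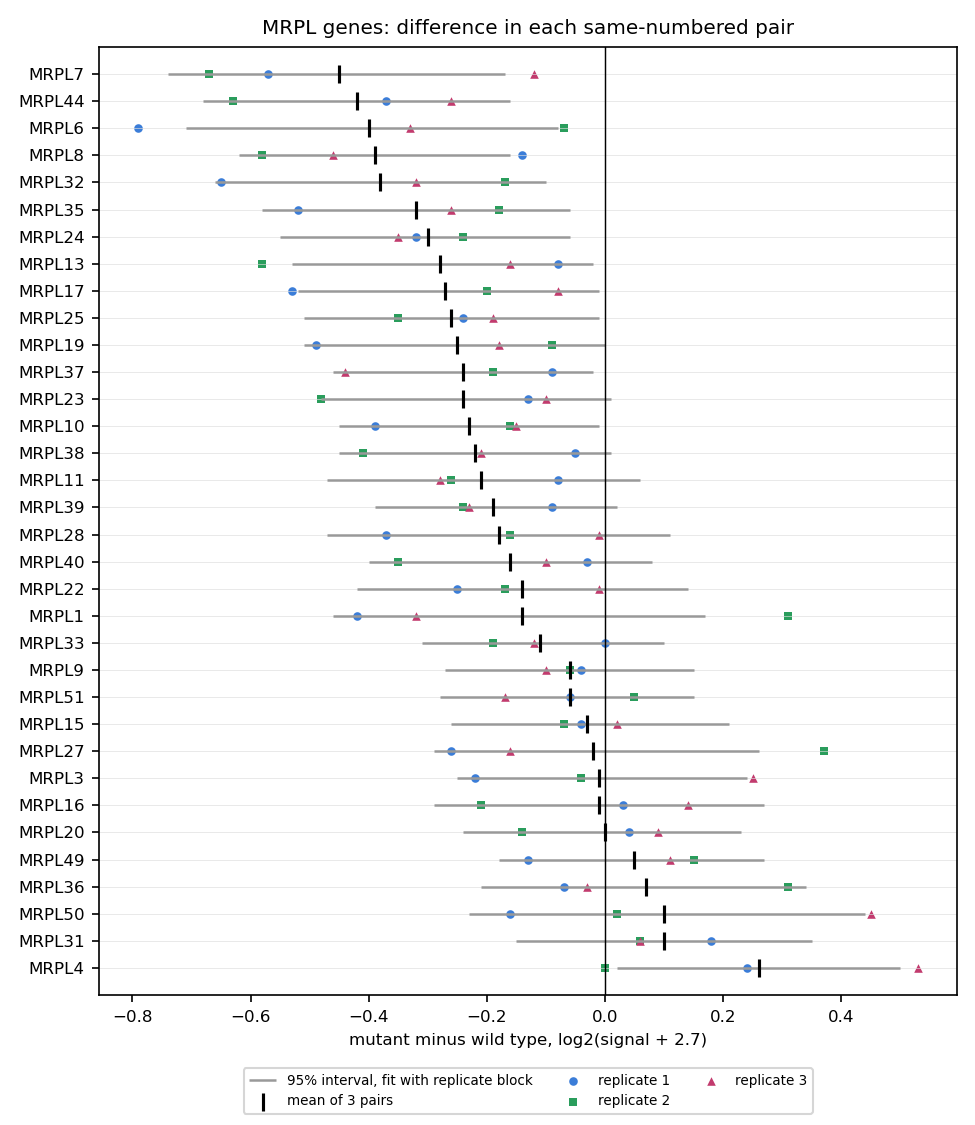
Mutant minus wild-type difference of log2(signal + 2.7) for each MRPL gene in replicates 1, 2 and 3 (coloured markers), with the mean (black bar) and the 95% interval of the fit with the replicate block (grey line). Intervals of 12 genes lie below 0, that of MRPL4 lies above 0 and 21 include 0, and the 3 markers of a gene are often spread as widely as its interval.

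**Figure D3:**
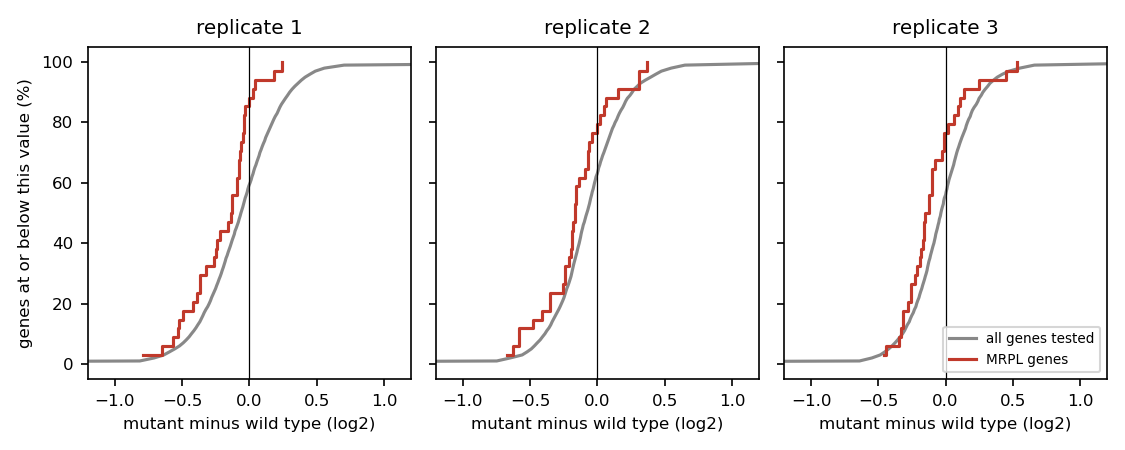
Percentage of genes at or below each mutant minus wild-type log2 difference, in replicates 1, 2 and 3, for the 34 MRPL genes (red steps) and all 4525 genes tested (grey line, clipped at 1.2 on both sides). The red steps lie to the left of the grey line over most of the range in each panel, with medians of -0.14, -0.17 and -0.13 against -0.06, -0.08 and -0.03.

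The genes of the universal families encode proteins that lie in several parts of the subunit. Of these 14 genes, 13 had a mean log2 difference below 0, with a median of -0.18 and 10 lower in all 3 pairs. MRPL7 (uL5) belongs to the central protuberance, the crest that contacts tRNA. Its signals were 69.5, 63 and 90.6 in wild type and 46.1, 38.6 and 83.3 in the mutant. Each mutant array was below its wild-type partner, but mutant array 3 exceeded wild-type arrays 1 and 2, so the groups overlapped. The mean log2 difference was -0.45, with a 95% interval from -0.74 to -0.17 and a limma adjusted p of 0.0914 with the block. It was -0.57 and -0.67 in replicates 1 and 2 and -0.12 in replicate 3.

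MRPL6 (uL6) sits near the site where translation factors bind. Its signals were 46.5, 33.8 and 90.8 in wild type and 25.8, 32 and 71.8 in the mutant. Replicate 1 carried most of its log2 difference of -0.40 (limma adjusted p = 0.192 with the block), with -0.79 there against -0.07 and -0.33 in replicates 2 and 3. MRPL19 (uL11) and MRPL11 (uL10) form the base of the stalk that receives those factors. Their log2 differences were -0.25 and -0.21, and both genes were lower in each pair.

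MRPL4 (uL29) lies at the mouth of the tunnel through which new proteins leave. It was the gene furthest on the higher side, with signals of 124.9, 153.8 and 117.5 in wild type and 148.5, 154 and 171.2 in the mutant. The groups overlapped, since wild-type array 2 exceeded mutant array 1. Its log2 difference was 0.26 with an interval from 0.02 to 0.50 (limma adjusted p = 0.257 with the block), and it came from replicate 1 (0.24) and replicate 3 (0.53). The other universal proteins of the tunnel did not share that direction: MRPL22 (uL22), which lines the tunnel, was at -0.14, and MRPL40 (uL24), near its exit, at -0.16. MRPL22 had nearly equal wild-type signals of 46.4, 45.1 and 45.7, and its mutant signals were 38.7, 39.8 and 45.3.

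MRPL9 (uL3), which reaches towards the catalytic centre, had a log2 difference of -0.06. MRPL16 (uL16), which contacts tRNA in the aminoacyl site, had signals of 38.6, 40.3 and 67.6 in wild type and 39.4, 34.5 and 75 in the mutant, a difference of -0.01 with mixed signs over the pairs. MRPL1 (uL1), the protein of the stalk through which spent tRNA leaves, varied more between replicates than any comparison of groups could resolve. Its signals were 50.9, 30.2 and 130.2 in wild type and 37.4, 38 and 103.8 in the mutant, and its pairs had log2 differences of -0.42, 0.31 and -0.32. The other universal members, MRPL10, MRPL23, MRPL33 and MRPL38, lay between -0.24 and -0.11.

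The 7 genes for proteins shared with bacterial ribosomes were divided, with 4 below 0 and 3 above 0 on average and a median of -0.19. MRPL8 (bL17), which lies near the tunnel exit, had signals of 145.7, 170 and 212.7 in wild type and 131.8, 113.2 and 154.4 in the mutant. All mutant arrays but array 3 were below all wild-type arrays. The log2 difference was -0.39 with an interval from -0.62 to -0.16 (limma adjusted p = 0.0781 with the block). Without replicate 1 it was -0.52 and its limma adjusted p with the block was 0.00531.

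MRPL32 (bL32) is made as a precursor that the m-AAA protease of the inner membrane trims before it joins the ribosome. Its signals were 61.7, 51 and 92.2 in wild type and 38.2, 45 and 73.3 in the mutant, lower in each pair. The log2 difference was -0.38 (limma adjusted p = 0.148 with the block). MRPL24 (bL28) had signals of 80.2, 65.9 and 102.1 in wild type and 63.5, 55.5 and 79.7 in the mutant. Its 3 pair differences were close to each other, at -0.32, -0.24 and -0.35 (limma adjusted p = 0.192 with the block). MRPL39 (bL33) was also lower in each pair, with a mean of -0.19.

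The bacterial-type genes on the other side were MRPL36 (bL31), MRPL49 (bL21) and MRPL50 (bL9), with log2 differences of 0.07, 0.05 and 0.10. None of them was higher in all 3 pairs. MRPL50 was a dim probe set, with signals of 23.4, 19.8 and 34.3 in wild type and 20.6, 20.1 and 47.9 in the mutant, so its mean rests on replicate 3 (0.45). MRPL36 had signals of 50.8, 35.3 and 96.8 in wild type and 48.2, 44.3 and 94.5 in the mutant, and its mean rests on replicate 2 (0.31). MRPL49 had signals of 122.5, 97.5 and 176.3 in wild type and 111.8, 108.8 and 190.7 in the mutant.

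Among the 13 genes for proteins of the mitochondrial-type families, 12 were below 0 on average, with a median of -0.18 and 7 lower in all 3 pairs. MRPL44 (mL53) had signals of 68.9, 83.1 and 101.7 in wild type and 52.8, 52.7 and 84.2 in the mutant. Mutant arrays 1 and 2 were below all wild-type arrays, and mutant array 3 was not. The log2 difference was -0.42, with an interval from -0.68 to -0.16 and a limma adjusted p of 0.0841 with the block. MRPL44 is the member with a second probe set, a dimmer one with signals of 14.6, 12.1 and 18.8 in wild type and 11.3, 6.3 and 15.9 in the mutant. That probe set gave -0.41, and pair differences of -0.31, -0.72 and -0.21 beside -0.37, -0.63 and -0.26 for the brighter one.

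MRPL35 (mL38), another protein of the central protuberance, had signals of 66, 53.3 and 101.5 in wild type and 45.2, 46.6 and 84.3 in the mutant, a log2 difference of -0.32 (limma adjusted p = 0.201 with the block). MRPL13 (mL50) had signals of 91.1, 101.8 and 160.6 in wild type and 85.9, 67.1 and 143 in the mutant, and replicate 2 (-0.58) gave most of its mean of -0.28. Both were lower in every pair with overlapping groups. MRPL17 (mL46) and MRPL25 (mL59), the second of which is also known as AFO1 because its loss lengthens the replicative life of yeast mother cells, had log2 differences of -0.27 and -0.26.

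MRPL37 (mL54) was the only one of the 34 genes whose groups did not overlap, where 4.99% of all genes tested had all mutant values below all wild-type values. Its signals were 215.4, 227.7 and 210.7 in wild type and 202.4, 199.1 and 155 in the mutant. The log2 difference was -0.24 (limma adjusted p = 0.242 with the block). The number of MRPL genes with all mutant values below was 6 with quantile normalization, 5 with a common median, 3 without wild-type array 1 or without wild-type array 2, and 22 without mutant array 3. Such counts over all genes tested were not made under these settings, so they cannot be set against the 4.99%. With replicates 1 and 2 only, the MRPL count was also 22, beside 32.1% of all genes tested. MRPL37 was also the only member whose mutant array 3 lay below the mean of mutant arrays 1 and 2. Its log2 difference was -0.44 in replicate 3 against -0.09 and -0.19 in replicates 1 and 2. No MRPL gene had all mutant values above all wild-type values, as 2.65% of all genes tested had, which makes 7.65% without overlap in either direction.

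Of the remaining mitochondrial-type genes, MRPL28 (mL40) had a log2 difference of -0.18 and was lower in each pair, and the others had smaller differences. MRPL3 (mL44) and MRPL15 (mL57) are related to RNase III and pair with each other in the ribosome. MRPL3 had signals of 100.5, 103.1 and 136.7 in wild type and 85.8, 99.9 and 163 in the mutant, a difference of -0.01 with replicate 3 (0.25) opposed to replicate 1 (-0.22). MRPL15, whose probe set name marks possible signal from related sequences, was at -0.03. MRPL20 (mL58) had a mean signal of 90.1 ± 17.9 in wild type and 90.1 ± 20.7 in the mutant (SD, n = 3 each). MRPL31 (mL60) was at 0.10, with signals of 52.9, 50 and 113.8 in wild type and 60.2, 52.3 and 118.9 in the mutant, so each mutant array was slightly above its partner. MRPL27 (mL41) and MRPL51 (mL43) had log2 differences of -0.02 and -0.06.

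For most MRPL genes array 3 differed more from arrays 1 and 2 of its own group than the mutant did from wild type. The signal on array 3 was above the mean of arrays 1 and 2 for 31 of 34 MRPL genes in wild type and for 33 of 34 in the mutant, and for 72.4% and 73.3% of all genes tested. The median log2 excess of array 3 was 0.51 in wild type and 0.63 in the mutant for the MRPL genes, and 0.27 and 0.31 for all genes tested. Genes of the large subunit of the cytosolic ribosome went the other way, with medians of -0.63 and -0.76 over 48 genes. Among the 34 MRPL genes the excess was larger for dimmer genes, with a correlation of -0.62 (Pearson) with mean level. Whether signal level accounts for the contrast with the cytosolic genes was not tested. The MRPL genes with a large excess had it in both groups: MRPL1 was at 1.66 and 1.40, MRPL6 at 1.14 and 1.24, MRPL31 at 1.11 and 1.05, and MRPL36 at 1.14 and 0.99. Across the 34 genes the excess in wild type and in the mutant correlated at 0.85 (Pearson), and at 0.86 across all 4525 genes tested. This is a description over genes that share the same 6 arrays, and what sets replicate 3 apart was not tested.

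**Figure D4:**
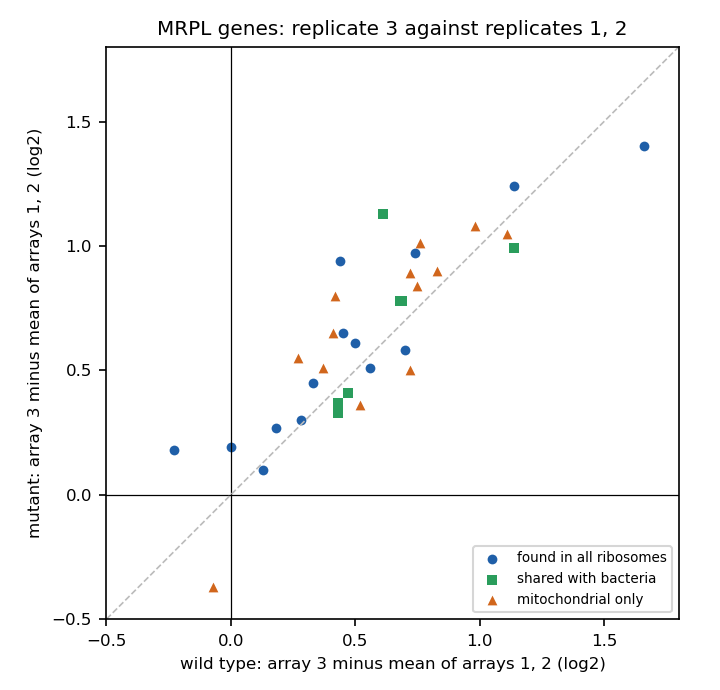
Log2 excess of array 3 over the mean of arrays 1 and 2, in wild type (horizontal) and in the mutant (vertical), for each MRPL gene, with markers for the protein family and a dashed line of equality. Of the 34 genes, 31 lie to the right of 0 and 33 above 0, and MRPL37 is the gene below 0 in both groups.

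Within replicates 1 and 2 alone, both mutant arrays were below both wild-type arrays for 22 of 34 MRPL genes (64.7%), as for 32.1% of all genes tested. Both were above for 0 MRPL genes, as for 13.1% of all genes tested. The median log2 difference was -0.18 in these 2 pairs and -0.13 in replicate 3, against -0.07 and -0.03 over all genes tested. Limma on these 4 arrays with the group only called 0 MRPL genes (lowest adjusted p = 0.0759, MRPL7). It called few of the 4525 genes tested, 33 lower and 20 higher, so a count of 0 among 34 says little. The comparison of medians within replicates 1 and 2 and within replicate 3 therefore had the same sign as the pooled one. Replicate 3 holds 1 array per group and allows no test.

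Which MRPL genes were low was only partly shared between the pairs. Across the 34 genes, the log2 differences of replicates 1 and 2 correlated at 0.10 (Pearson), those of replicates 1 and 3 at 0.45 and those of replicates 2 and 3 at 0.31, beside 0.32, 0.34 and 0.42 across all genes tested. The spread of the mean difference among the MRPL genes was 0.17 (SD over 34 genes), and the median standard error of a single gene was 0.12 with the block and 0.26 without it. The order of the genes within the list is thus not much wider than the error of its members.

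The MRPL genes are scattered over 12 of the 16 nuclear chromosomes, with at most 5 on one chromosome (IV, XIII and XIV). None has another MRPL gene as its upstream neighbour. A divergent upstream neighbour here is the adjacent upstream gene by start position, where it lies on the opposite strand. Genes that overlap were not set aside. Such a neighbour was found for 20 of 34 (58.8%), as for 51.6% of 6002 protein-coding genes of the R64 assembly. Of these neighbours, 14 were tested, 6 of them had a log2 difference below 0, and their median was 0.06, against -0.14 for the 14 MRPL genes beside them. With the block, 0 of the 14 neighbours passed.

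The other genes of mitochondrial translation gave similar values. Large subunit proteins that carry other names, such as RML2 (uL2), MHR1 (mL67) and MRP7 (bL27), had a median log2 difference of -0.16 with 11 of 11 tested genes below 0 and 0 passing in either fit. Over all 45 tested large subunit genes, with MRPL and other names, the median was -0.18 and 40 were below 0. RML2 had a log2 difference of -0.34 and MHR1, which also takes part in mitochondrial DNA recombination, of -0.27 (limma adjusted p = 0.159 and 0.209 with the block).

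The small subunit genes, 31 in all, had a median of -0.17, with 25 below 0. With the group only 0 passed, and with the block 3 fell and 0 rose, where 1.39% of all genes tested fell and 0.884% rose. The genes that fell were MRP51, MRP1 and MRP2 (log2 -0.53, -0.41 and -0.46, limma adjusted p = 0.0415, 0.0457 and 0.0481 with the block, each lower in 3 of 3 pairs). Whether the subunits differ in this was not tested. Over these and the further lists together, 4 genes fell with the block, but 0 did without replicate 2 or without replicate 3, and 1 did with no filter on dim genes. The count over all genes tested went down as well. It was 63 with the block, 13 without replicate 2, 7 without replicate 3 and 42 with no filter.

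Among the tRNA charging enzymes 1 of 13 tested genes fell with the block, beside the same 1.39% of all genes tested, and the list's median was -0.24. It was HER2, a subunit of the amidotransferase that makes glutaminyl-tRNA in mitochondria. Its signals were 25.4, 28.2 and 48 in wild type and 14.4, 10.9 and 34.1 in the mutant (log2 -0.79, limma adjusted p = 0.021 with the block). Mutant array 3 exceeded wild-type arrays 1 and 2, so its groups overlapped.

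The further lists had 0 genes passing in either fit. Assembly and processing factors of the large subunit, 6 tested, had a median of -0.17 and were all below 0, among them the RNA helicase gene MRH4 (log2 -0.49) and the GTPase gene MTG2 (-0.45). Translation factors, 8 tested, had a median of -0.24, with 7 below 0. The elongation factor gene MEF1 was at -0.35 and the initiation factor gene IFM1 at -0.42. MTQ1 was the gene above 0, at 0.28 and higher in all 3 pairs, and TUF1 was at -0.02. Activators that each serve one or a few mitochondrial mRNAs, 13 tested, had a median of -0.11. CBP3, for cytochrome b, was at -0.34 and ATP22, for an ATP synthase subunit, at 0.40.

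A list of regulators of nuclear genes for mitochondria, 6 tested, had a median of -0.24, with 4 below 0. HAP4, the activating subunit of the Hap complex that turns on respiratory genes, had signals of 127.8, 175.8 and 72.3 in wild type and 98.4, 89.5 and 61.7 in the mutant (log2 -0.51, limma adjusted p = 0.0623 with the block). Unlike most MRPL genes, HAP4 was lowest on array 3 in both groups. HAP2, a DNA-binding subunit of the same complex, was at -0.42 (limma adjusted p = 0.14 with the block). HAP3, another of its DNA-binding subunits, had signals of 36.1, 40.3 and 40.2 in wild type and 37.2, 39 and 40.5 in the mutant, with no difference in the mean (0.00). HAP1, a haem-responsive activator of respiratory genes, lay on the other side at 0.28 (limma adjusted p = 0.231 with the block). The name of the HAP1 probe set marks possible signal from related sequences, so this value may not be of HAP1 alone. The cytosolic large subunit genes had a median of -0.05 over 48 genes, with pair medians of 0.14, -0.13 and -0.15.

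**Figure D5:**
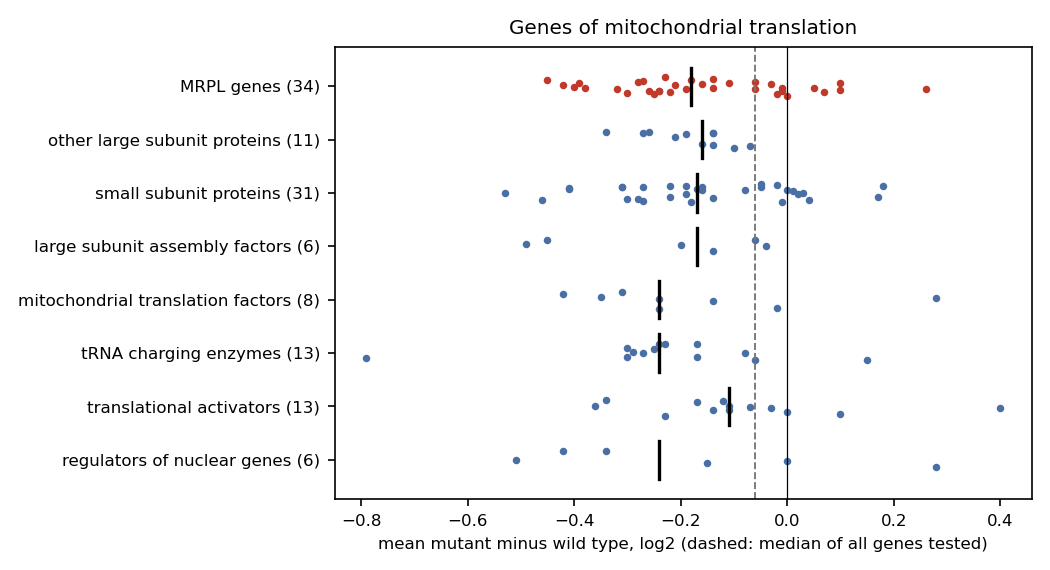
Mean mutant minus wild-type log2 difference of each tested gene (points, spread vertically for visibility) in the MRPL genes and in the 7 further lists, with the number tested in parentheses, black bars at each median and a dashed line at the median of all genes tested (-0.06). Every median lies below the dashed line, from -0.24 to -0.11, and the single point at -0.79 is HER2.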

How the data were processed

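Total RNA of 6 yeast samples (3 wild type, 3 H2B mutant) was measured on arrays with 9335 probe sets. Per the submitters' processing notes, the authors computed each intensity with MAS5. Its version, settings and detection calls were not found in the sources used here. The deposited columns had 2% trimmed means of 125.1 to 125.2 and were used as deposited. Of 9275 non-control probe sets, 6504 had 1 gene, 328 several and 2443 none. Only those with 1 gene were used, the brightest per gene, with current symbols looked up by gene identifier in the R64 gene table, which held all 5656. A value of 2.7, the 10th percentile, was added before log2. Genes below the 20th percentile of mean level were left out (1131), leaving 4525.

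The tests used limma 3.58.1 and R 4.3.3 (variance prior with a trend on mean level), with the group only as the main fit and the replicate number as a block beside it. Deviations of same-numbered arrays correlated at 0.52, 0.59 and 0.86 over all genes tested. Arrays of replicates 1 and 2 also correlated across numbers (0.51 and 0.65), so the pairing of those rests on the labels. With the block, 2 residual degrees of freedom per gene stood beside 12.5 of the variance prior. No label states that replicates are separate cultures. The p-values therefore measure only the spread among these arrays, possibly a technical one, and the number of arrays limits the precision. The fits were tested on simulated data with inserted changes of 1.5-fold and 2-fold. The fit with the block recovered 59.7% and 89.7% of these and the group-only fit 0%. Same-numbered arrays shared a replicate shift in the simulation by construction, and changes of the size of the mean MRPL differences were not inserted.

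Members and lists were chosen with earlier results of these data known. Named genes are the 8 lowest and 8 highest members by mean change, members whose groups did not overlap, members passing either fit, up to 4 passing genes of each other list (or the 2 with the smallest p with the block) and HTB1; other named genes were chosen after their values were seen.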

Additional observations from a re-analysis of the deposited data

How the results depend on the processing

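The settings tried were 2 scalings, 2 offsets, 2 filters on dim genes, 2 choices of probe sets, 2 variance priors, the replicate block and leaving out arrays. The block together with each other setting, a block that set replicate 3 apart and replicates 1 and 2 alone were chosen after seeing the data. With the group only, 0 MRPL genes passed in any of them. With the replicate block 0 passed, but 1 passed without replicate 1 (MRPL8), 2 with scaling to a common median (MRPL7 and MRPL8) and 3 with a robust variance prior (MRPL7, MRPL8 and MRPL44), all lower. In these fits, in the same order, 63, 136, 115 and 148 of all genes tested fell. The MRPL median of -0.18 was -0.15 with quantile normalization, scaling to a common median or a larger offset, and -0.33 to -0.03 with 1 array left out (-0.03 without wild-type array 3, -0.05 without mutant array 2, -0.12 without mutant array 1 and -0.33 without mutant array 3). Less the median of all genes tested it was -0.13, and -0.17 to -0.03 with 1 array left out; with the replicate block it was -0.09 without replicate 1 and -0.10 without replicate 2. Pair 1 was at -0.08, -0.05 and -0.12 under quantile normalization, common median and larger offset, pair 2 at -0.12, -0.14 and -0.14, and pair 3 at -0.15 with the stricter filter. MRPL genes with all mutant values below numbered 6 with quantile normalization, 5 with a common median and 22 with replicates 1 and 2 only, and 1 to 22 with arrays left out. Of all genes tested, 4.99% were below in the main setting and 32.1% with replicates 1 and 2 only, and the other settings were not counted. MRPL genes with all above numbered 0 to 1. In the other lists with the block, 4 fell, also with the smaller or larger offset, the mean of probe sets and the block for replicate 3, 5 with quantile normalization, a common median or unmarked probe sets, 6 with the robust prior, 1 with no filter, the stricter filter or no trend, and 0 to 5 with arrays or pairs left out, where 0 to 1 rose. Counts over all genes tested moved too. With the block 63 fell, 103 with quantile normalization, 115 with a common median and 79 with unmarked probe sets. It was 148 with the robust prior, 42 with no filter, 46 with the stricter filter, 29 with no trend and 7 to 136 with pairs left out. With replicates 1 and 2 only and no block 2 fell, and 33 of all genes tested. MRPL genes close to 0 changed sign: with quantile normalization and with a common median MRPL15 was at 0.01 and 0.01, MRPL16 at 0.03 and 0.02, MRPL20 at 0.04 and 0.03, MRPL27 at 0.02 and 0.02 and MRPL3 at 0.04 and 0.03, so 24 of 34 were below 0. With replicates 1 and 2 only MRPL27 was at 0.06 and MRPL50 at -0.07. With the block, leaving out replicate 1 put MRPL27 and MRPL3 at 0.10, leaving out replicate 2 put MRPL16 at 0.09, MRPL20 at 0.06, MRPL3 at 0.01, MRPL36 at -0.05 and MRPL49 at -0.01, and leaving out replicate 3 put MRPL27 at 0.06 and MRPL50 at -0.07. Leaving out single arrays gave ranges across 0 for MRPL1 (-0.61 to 0.41), MRPL11 (-0.40 to 0.03), MRPL15 (-0.33 to 0.25), MRPL16 (-0.34 to 0.23), MRPL20 (-0.17 to 0.13), MRPL25 (-0.62 to 0.06), MRPL27 (-0.22 to 0.22), MRPL28 (-0.51 to 0.07), MRPL3 (-0.27 to 0.18), MRPL31 (-0.25 to 0.47), MRPL36 (-0.26 to 0.45), MRPL49 (-0.21 to 0.27), MRPL50 (-0.28 to 0.31), MRPL51 (-0.18 to 0.11), MRPL9 (-0.23 to 0.12) and CBP3 (-0.77 to 0.04). The causes were not tested.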
